A study of Mus musculus with 8 samples.

Results

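Basal and infundibular keratinocyte genes were followed in bulge cells of carcinogen-treated mouse back skin, from wild-type animals and from conditional knockouts of G9a, a histone methyltransferase. The set was 9 named genes, Trp63, Krt5, Krt14, Ly6a, Ly6d, Plet1, Krt79, Defb1 and Defb6, and all probe sets carrying 1 of these symbols. Of the 9 genes, 8 were represented, by 15 of the 45141 probe sets on the array, and those 8 were among 17097 genes tested. Ly6a, which encodes the surface antigen Sca-1, had no probe set named for it in the platform annotation and was not analysed here.

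There were 4 arrays from G9a cKO animals, which carry a conditional knockout, and 4 arrays from G9a WT animals. The titles number the arrays of a genotype as replicates and do not say whether each is a different animal. All animals had received DMBA, a mutagen, at 0.25 mg/ml and TPA, a tumour promoter, at 0.02 mg/ml. Each was given as 200 µl in acetone on shaved back skin once a week for 6 weeks from 8 weeks of age. The labels give the age of the animals as 15 weeks. No untreated samples were analysed here, so each difference is a difference between genotypes under treatment. The sources used here do not give the driver of the deletion, the deleted part of the gene or the way the bulge cells were isolated.

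The interfollicular epidermis, the infundibulum (the funnel of the hair follicle that opens onto the skin) and the bulge, the stem cell niche lower in the follicle, form a continuous sheet. Its basal cells rest on the basement membrane and carry keratins 5 and 14, whose genes are switched on by the transcription factor p63. Bulge cells share this basal programme. In normal skin Defb6, Krt79, Plet1 and Sca-1 are used as markers of the upper follicle rather than of the bulge, so their signal in a bulge preparation can come from bulge cells or from upper follicle cells among them.

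The labelled cell type was checked against its markers. All 14 listed bulge markers were measured, and none had a mean in the lowest 40% of genes. Of the 14, 2 fell in cKO (adjusted p under 0.05), none rose and 10 lay below 0 (median log2 change -0.015), where 0.836% of all genes tested were called lower and 48.5% lay below 0. Fst, an activin antagonist gene, changed by -0.44 (SE 0.080, limma adjusted p = 0.0154) while Foxc1, a forkhead factor needed for bulge cell quiescence, differed by -0.29 (SE 0.053, limma adjusted p = 0.0165), each with all cKO arrays below all WT arrays. When arrays were left out in turn Fst passed in 5 of 8 fits and Foxc1 in 4, and neither was called without cKO replicate 4 or without WT replicate 1. With the replicate number as a block Fst passed (limma adjusted p = 0.0138) and Foxc1 did not (limma adjusted p = 0.0682). With the mean of the immediate early list as a covariate neither was called, and Fst was at -0.18. This covariate nearly follows genotype, as described further on. Nfatc1, a transcription factor of quiescent bulge cells, did not pass, at -0.35 (limma adjusted p = 0.0566). On the log2 expression scale (mean ± SD, n = 4 each) Cd34, a surface antigen of bulge stem cells, read 10.45 ± 0.20 in cKO and 10.54 ± 0.13 in WT, and Lgr5, a stem cell receptor, read 11.01 ± 0.08 and 11.04 ± 0.05. Array medians lay within 5.87 to 5.95, and no pair of arrays held identical values. Over 17097 genes WT replicate 4 lay nearest the cKO arrays on the first principal component, at 2.92, against 10.6 to 12.7 for the other WT arrays and -12.2 to -5.95 for the cKO arrays. In the targeted gene, Ehmt2, probe set 1460692_PM_at read at most 6.44 on any cKO array and at least 8.89 on any WT array, while 1426888_PM_at read 8.41 in both groups.

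Among the 8 measured genes, Defb6 and Ly6d were lower in cKO at an adjusted p under 0.05 and none was higher (limma, Benjamini-Hochberg over all 17097 genes). That is 25% of the members, where 0.836% of all genes tested were called lower and 1.92% higher; the genes were named with earlier results of these data known, so the share is a description. Defb6 was 2.35-fold lower and Ly6d 1.30-fold lower. The same 2 genes were called without WT replicate 4, where 294 of all genes were called lower, against 143 with all arrays. Krt79 and Defb1 had lower means without passing, and Trp63, Krt5, Krt14 and Plet1 had mean differences under 0.10 on the log2 scale. The median log2 change was -0.21 over the 8 members and 0.0027 over all genes tested. At an unadjusted p under 0.05, 4 members were lower and none higher, where 5.57% of all genes were lower and 8.16% higher. Of their 15 probe sets, 4 were lower and 2, both of Trp63, were higher at that level. At an adjusted p under 0.01 Defb6 alone was called lower (0.257% of all genes), and at one under 0.1 Defb6, Ly6d and Defb1 were (1.44% of all genes). In bulk samples fewer cells of a type and less RNA per cell cannot be told apart, which holds for each value here.

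**Figure D1:**
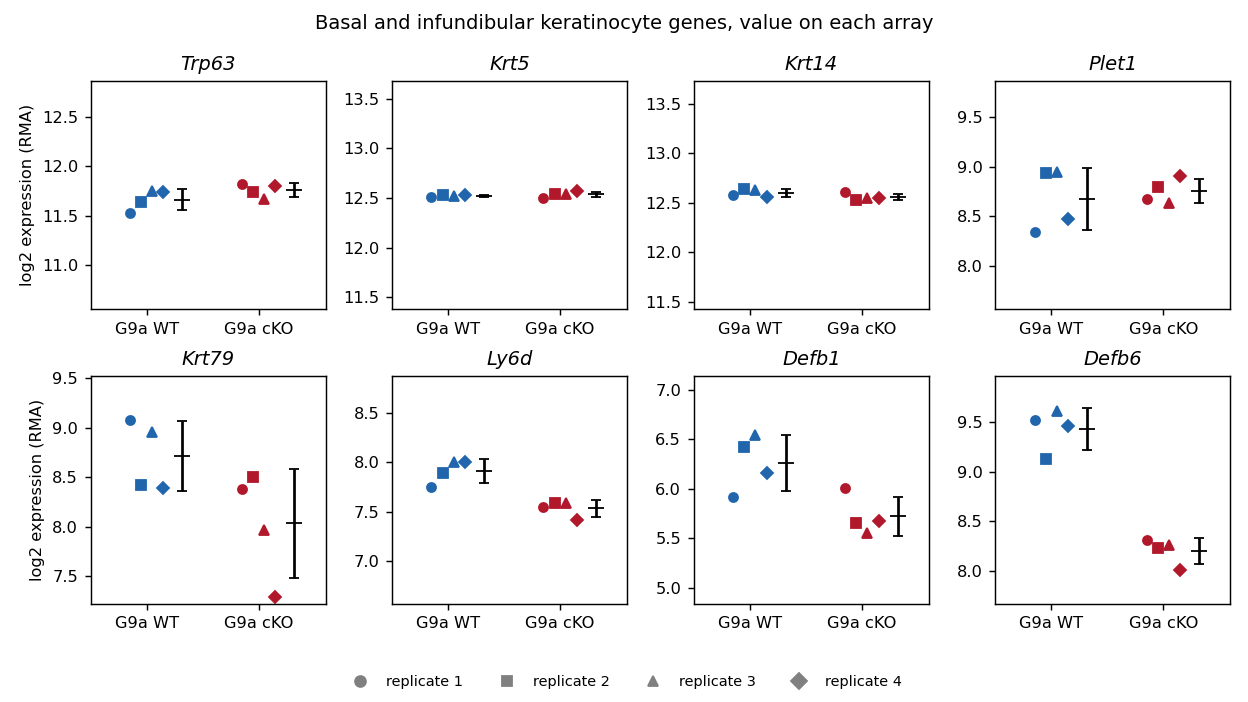
Log2 expression (vertical axis, a span of equal size in every panel) of the 8 measured genes on each of the 4 G9a WT arrays (blue) and 4 G9a cKO arrays (red), with replicates by symbol and the mean ± SD in black. The groups are separate for Defb6 and Ly6d and overlap in the other 6 panels.

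Trp63 encodes p63, which keeps keratinocytes in the basal state. Its probe set 1452027_PM_a_at read 11.82, 11.74, 11.66 and 11.80 on cKO replicates 1 to 4 and 11.52, 11.64, 11.75 and 11.74 on WT replicates 1 to 4. The groups overlapped, with 2 of the 4 cKO arrays above every WT array. The log2 change was 0.096 (SE 0.054, 95% interval -0.024 to 0.21, limma adjusted p = 0.503). The other three Trp63 probe sets also had higher means in cKO, by 0.13 in 1418158_PM_at, 0.15 in 1451876_PM_a_at and 0.039 in 1459581_PM_at, and none passed over all probe sets, where 1.18% were called higher (lowest limma adjusted p = 0.252). All 4 measure 1 gene, so they are not independent. The 95% interval of the largest change, in 1451876_PM_a_at, was 0.031 to 0.28.

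Krt5 and Krt14 encode the keratin pair that forms the filaments of basal keratinocytes. Krt5 read between 12.50 and 12.57 on the cKO arrays and between 12.51 and 12.53 on the WT arrays. Its log2 change was 0.012, with a 95% interval of -0.041 to 0.064 (limma adjusted p = 0.919). Krt14 read 12.61, 12.53, 12.55 and 12.55 on the cKO arrays and 12.58, 12.64, 12.63 and 12.56 on the WT arrays by probe set 1423935_PM_x_at. Its log2 change was -0.043, with a 95% interval of -0.11 to 0.020 (limma adjusted p = 0.581). The second Krt14 probe set, 1460347_PM_at, differed by -0.046 (limma adjusted p = 0.646 in the fit of all probe sets). The groups overlapped in all 3 of these probe sets. Krt5 and the first Krt14 probe set had means above those of at least 99.9% of genes, close to the highest value on any array, 13.1, where array signal can flatten; the narrow intervals hold for the array signal and say less about RNA amount.

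Plet1 encodes a surface protein of the follicle isthmus and infundibulum, the antigen of the antibody MTS24. It read 8.68, 8.79, 8.63 and 8.91 on the cKO arrays, all within the span of the WT arrays at 8.34, 8.94, 8.95 and 8.47. The spread was wider in WT, with an SD of 0.31 against 0.12. The log2 change was 0.077 (95% interval -0.22 to 0.38, limma adjusted p = 0.903). The other two Plet1 probe sets differed by -0.016 in 1423933_PM_a_at and by 0.11 in 1423934_PM_at, and neither passed. No direction can be given for Plet1.

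Krt79 encodes a keratin of the cells that line the infundibulum and of the sebaceous duct. Its single probe set read 8.38, 8.50, 7.96 and 7.29 on the cKO arrays and 9.08, 8.42, 8.95 and 8.39 on the WT arrays. Of the cKO arrays, 3 lay below every WT array and replicate 2 lay among them. Log2 means ± SD were 8.03 ± 0.55 in cKO against 8.71 ± 0.35 in WT (n = 4), a change of -0.68 (SE 0.25, 95% interval -1.24 to -0.11) that did not pass over all genes (limma adjusted p = 0.249; exact two-sided permutation p = 0.114, n = 4). These were the largest SDs in each genotype among the 8 genes. The change was -0.43 without cKO replicate 4, the lowest array.

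The sebaceous gland, which also expresses Krt79, was followed through a list of 13 marker genes, of which 9 were measured. None of the 9 passed, 6 lay below 0, and 4 had means in the lowest 40% of genes. The log2 of their summed signal ran from 10.6 to 10.9 in cKO and from 10.6 to 10.9 in WT. Their mean deviation was highest in WT replicates 1 and 3, at 0.11 and 0.13, the arrays with the highest Krt79, and lowest in cKO replicate 4, at -0.12, the array with the lowest Krt79. WT replicate 2 had a low list mean too, -0.089, with Krt79 at 8.42. Within the list Scd1, a sebocyte fatty acid desaturase, had the lowest p, with log2 means ± SD of 7.88 ± 0.27 in cKO against 8.23 ± 0.35 in WT (n = 4, limma adjusted p = 0.431). The part of these cells in the Krt79 values was not tested.

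Ly6d encodes a small glycolipid-anchored surface protein of stratified epithelia, where it is found in keratinocytes, and of early B cells. It read 7.54, 7.58, 7.59 and 7.41 on the cKO arrays and 7.74, 7.89, 8.00 and 8.00 on the WT arrays. Every cKO array lay below every WT array, with a gap of 0.16 between the groups. The log2 change was -0.38 (SE 0.073, 95% interval -0.54 to -0.22), which leaves 77.0% of the WT signal (limma adjusted p = 0.0218; exact two-sided permutation p = 0.0286, n = 4, the smallest that 4 against 4 arrays allow). It passed in 5 of the 8 fits that left out 1 array, with a log2 change of -0.43 to -0.34 over the 8. In the fit of all probe sets it passed in 2 of the 8, without WT replicate 1 and without WT replicate 4, and its limma adjusted p reached 0.109. Over genes the adjusted p by limma rose to 0.0585 without cKO replicate 2, 0.0696 without cKO replicate 4 and 0.0800 without WT replicate 3. Of 6 listed B cell markers 5 were measured and none passed, with a log2 summed signal of 7.36 to 7.49 in cKO and 7.41 to 7.51 in WT and 4 of the 5 in the lowest 40% of genes.

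The beta-defensins are small cationic peptides, held by disulphide bonds, that epithelia secrete against microbes. Defb1, widely expressed in epithelia, read 6.01, 5.65, 5.55 and 5.67 on the cKO arrays and 5.91, 6.42, 6.54 and 6.16 on the WT arrays by probe set 1419491_PM_at. Of the cKO arrays, 3 lay below every WT array, and cKO replicate 1 lay above WT replicate 1. The log2 change was -0.54 (SE 0.14, 95% interval -0.85 to -0.23), and it did not pass (limma adjusted p = 0.0781; exact two-sided permutation p = 0.0571, n = 4). It passed without cKO replicate 1 (limma adjusted p = 0.0369) and without WT replicate 1 (limma adjusted p = 0.0312). The second probe set, 1419492_PM_s_at, differed by only -0.14 (95% interval -0.47 to 0.19, limma adjusted p = 0.800 in the fit of all probe sets). The size of a Defb1 change therefore depends on the probe set. The first probe set is nearer the bottom of the scale than the other members, its mean above that of 43.8% of genes.

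Defb6 is a beta-defensin of keratinocytes and marks the upper follicle in normal mouse skin. It read 8.31, 8.23, 8.26 and 8.01 on the cKO arrays and 9.53, 9.13, 9.61 and 9.47 on the WT arrays. The highest cKO array lay 0.83 below the lowest WT array. The log2 change was -1.23 (SE 0.10, 95% interval -1.46 to -1.002), which leaves 42.6% of the WT signal (limma adjusted p = 0.000439; exact two-sided permutation p = 0.0286, n = 4). By p Defb6 ranked 9 among the 17097 genes. It passed in all 8 fits without 1 array, with a log2 change of -1.33 to -1.17 and a highest limma adjusted p of 0.00225. Groups without overlap were found in 2 of the 8 members, Defb6 and Ly6d, and in 8.24% of all genes, with the cKO arrays below in 3.09%.

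**Figure D2:**
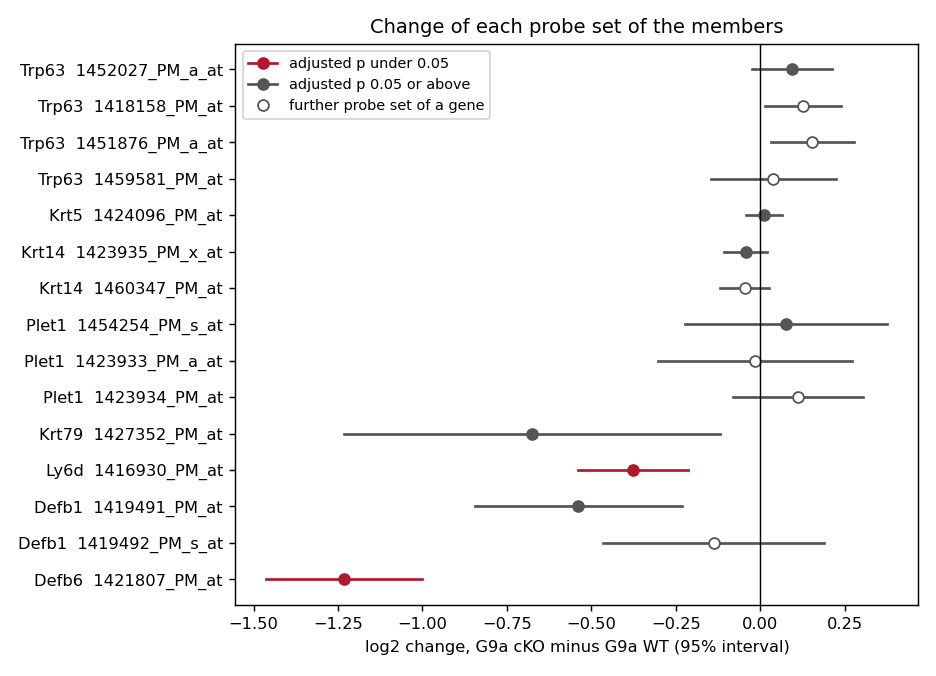
Log2 change of G9a cKO minus G9a WT for each of the 15 probe sets (points, with 95% intervals from limma as lines), in red where the adjusted p in the fit to all 45141 probe sets was under 0.05 and open for further probe sets of a gene. Only the Defb6 and Ly6d probe sets are red, at -1.23 and -0.38, and the 4 Trp63 probe sets lie between 0.039 and 0.15.

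Over all probe sets the count was the same, 2 of 15 lower and none higher, where 0.587% of 45141 probe sets were called lower. Probe sets of 1 gene varied together across the 8 arrays to different degrees, with Pearson r = 0.76 for the Defb1 pair and 0.88 for the Krt14 pair, 0.72 to 0.82 among the 3 of Plet1, and -0.030 to 0.75 among the 4 of Trp63 (n = 8 arrays, both genotypes pooled, given as a description).

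The RefSeq promoter table of GRCm38.p6 held 5 of the 9 genes: Defb6, Plet1, Krt5, Krt79 and Krt14. The Krt14 entry did not begin at the outer end of the gene and was left out. The 250 bases before the start are shown for 2 upper follicle genes, Defb6, which fell, and Plet1, which gave no direction, since the motif TATAA, a core promoter element, occurs at nearly the same place in each. Capitals mark TATAA, and both run 5′ to 3′ on the plus strand, at chr8:19225228-19225477 for Defb6 and chr9:50494275-50494524 for Plet1.
Defb6: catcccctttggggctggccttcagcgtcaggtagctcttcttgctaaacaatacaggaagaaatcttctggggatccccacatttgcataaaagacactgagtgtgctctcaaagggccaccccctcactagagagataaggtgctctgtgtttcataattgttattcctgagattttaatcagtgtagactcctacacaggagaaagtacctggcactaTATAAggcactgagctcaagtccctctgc
Plet1: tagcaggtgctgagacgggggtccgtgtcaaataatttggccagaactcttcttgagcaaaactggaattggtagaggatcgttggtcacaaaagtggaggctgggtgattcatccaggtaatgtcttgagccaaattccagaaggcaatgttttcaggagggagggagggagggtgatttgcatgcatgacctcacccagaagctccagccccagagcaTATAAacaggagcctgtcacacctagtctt

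TATAA began 29 bases before the start in Defb6 and 30 bases before it in Plet1, and was not in this window of Krt5 or Krt79. Searched on both strands, TATAA was in 22.8% of 32851 promoter windows of 250 bases. TGANTCA, the motif of the AP-1 factors that TPA activates, occurred in Plet1 and in 6.75% of all windows, and its letters were not in the Defb6, Krt5 or Krt79 windows. The Defb6 window held 1 CG dinucleotide, the Krt5 window 2, and those of Krt79 and Plet1 held 3 each, against a median of 6 over all windows. A match is a description of letters and not of a bound site. Only these exact letters were searched for, so a variant of TATAA in Krt5 or Krt79 would not be counted.

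Neighbouring genes of Defb6 and Ly6d in RefSeq order were measured too, 4 on each side. Around Defb6, 4 of 8 were measured, the beta-defensin genes Defb3, Defb4, Defb5 and Defb8. None passed, their log2 changes ran from -0.046 to 0.069, and all 4 were in the lowest 40% of genes, so little can be said of a change in them. Around Ly6d, 5 of 8 were measured, Slurp1, Lypd2, Lynx1, Ly6k and Gml2, which belong to the same family of three-finger proteins. None of those 5 passed, with log2 changes of -0.026 to 0.046, and 4 of them were in the lowest 40%.

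None of the measured genes on lists of the 2 families that Defb6 and Ly6d belong to passed. Of 24 listed beta-defensin and antimicrobial peptide genes other than the members, 22 were measured, none passed, and 19 were in the lowest 40% of genes (median log2 change -0.023). The lowest p was that of Lyz2, the lysozyme gene of myeloid cells, with log2 means ± SD of 4.22 ± 0.08 in cKO against 4.45 ± 0.26 in WT (n = 4, limma adjusted p = 0.403). Of 32 listed Ly6 family genes, 24 were measured, none passed, and 17 were in the lowest 40% (median log2 change -0.018). Plaur, the urokinase receptor gene, had the lowest p there, with 4.80 ± 0.05 in cKO against 4.95 ± 0.07 in WT (limma adjusted p = 0.182).

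A list of other upper follicle and isthmus genes had 2 falls. Of 14 measured out of 16, 2 fell, none rose and 10 lay below 0, with a median log2 change of -0.11, against 0.836% of all genes called lower and 48.5% of all genes below 0. The 2 were Gata6, a transcription factor of the sebaceous duct and upper follicle, and Cd44, a hyaluronan receptor of many epithelial cells. Gata6 read 6.35, 6.42, 6.34 and 6.44 on the cKO arrays and 6.77, 6.95, 6.81 and 6.62 on the WT arrays, without overlap (log2 change -0.40, SE 0.072, limma adjusted p = 0.0154). Cd44 differed by -0.19 (SE 0.044, limma adjusted p = 0.0470). When arrays were left out in turn, Gata6 passed in 5 of 8 fits and Cd44 in 1. Without cKO replicate 2, without cKO replicate 3 or without WT replicate 3 no gene of the list was called. None was called either with the replicate number as a block (limma adjusted p = 0.0690 for Gata6 and 0.175 for Cd44) or with the mean of the immediate early list, described further on, as a covariate, where Gata6 was at -0.23 (limma adjusted p = 0.439) and Cd44 at -0.20 (limma adjusted p = 0.374). Lrig1 and Lgr6, stem cell markers of the junctional zone and isthmus, differed by 0.07 and -0.06, and Sostdc1, a BMP and WNT antagonist, had a higher mean without passing, 11.60 ± 0.05 in cKO against 11.23 ± 0.29 in WT (log2, SD, n = 4, limma adjusted p = 0.155). Sostdc1 read 11.65 on WT replicate 4 and 11.01 to 11.17 on the other WT arrays. It was called higher with array weights and without WT replicate 4. Without that array Aqp3 was called lower too, where 502 of all genes rose and 294 fell, against 329 and 143 with all arrays.

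**Figure D3:**
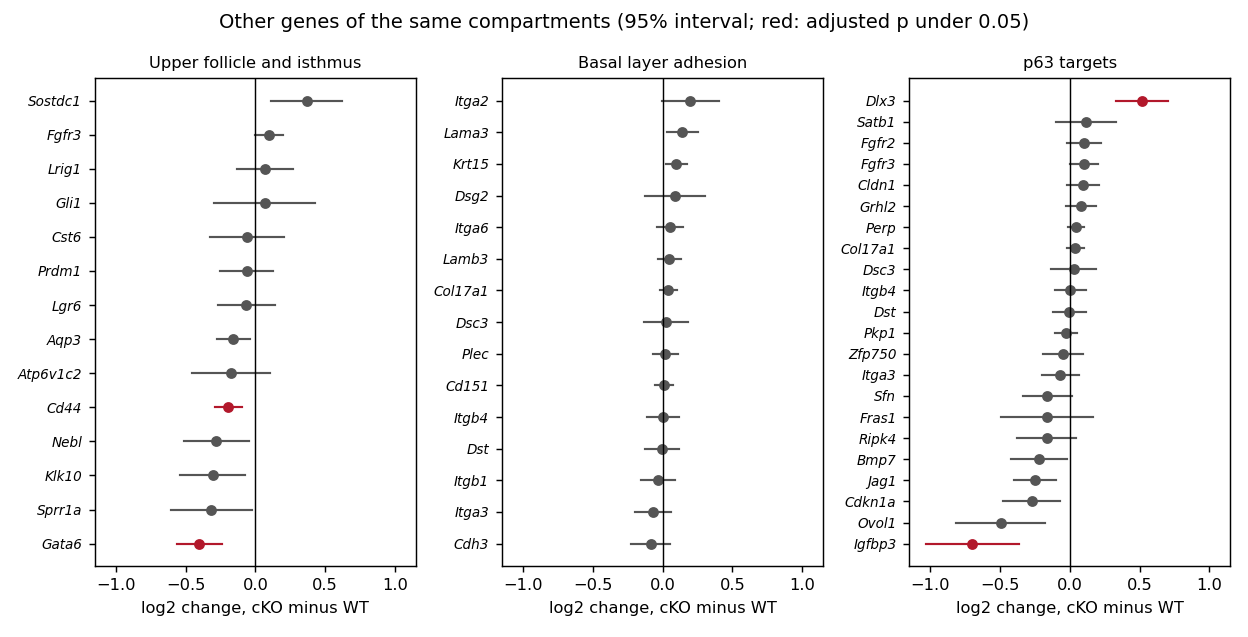
Log2 change of G9a cKO minus G9a WT (points, with 95% intervals from limma) for the measured genes of 3 lists, in red where the adjusted p over 17097 genes was under 0.05. Gata6 and Cd44 fell in the upper follicle list, none of the 15 basal adhesion genes passed, and Dlx3 rose and Igfbp3 fell among the p63 targets.

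Basal layer genes other than the members did not pass. Of 18 listed genes for hemidesmosomes, basement membrane and basal adhesion, 15 were measured, none was called and 4 lay below 0 (median log2 change 0.027). Of these, Krt15, Col17a1 and Dst had means of 12.01 or more in both groups, near the top of the scale, where array signal can flatten. So had Perp of the p63 targets below, at 12.35 in cKO and 12.31 in WT. The lowest p were those of Krt15, a basal and bulge keratin, at 12.36 ± 0.03 against 12.26 ± 0.06 in WT (log2, SD, n = 4, limma adjusted p = 0.202), and Lama3, a laminin subunit of the basement membrane, at 10.66 ± 0.07 and 10.52 ± 0.07 (limma adjusted p = 0.220). Of 24 listed p63 targets of keratinocytes 22 were measured, and 1 rose and 1 fell (median log2 change -0.013), where 1.92% of all genes were called higher and 0.836% lower. Dlx3, a homeobox gene of epidermal and hair differentiation, rose 1.43-fold (limma adjusted p = 0.00867), and Igfbp3, an IGF-binding protein gene, fell 1.62-fold (limma adjusted p = 0.0378). When arrays were left out in turn, Dlx3 passed in all 8 fits and Igfbp3 in 3. Neither passed with the replicate number as a block (limma adjusted p = 0.0647 for Dlx3 and 0.0657 for Igfbp3) or with the immediate early list mean as a covariate (0.286 and 0.0567). Trp73, the p53 family member measured beside Trp63, had means of 8.40 ± 0.04 in cKO against 8.29 ± 0.02 in WT (limma adjusted p = 0.329).

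Among 27 measured keratin genes other than the members, 2 rose and none fell (median log2 change 0.0050), where 1.92% of all genes were called higher. Of the 27, 13 lay below 0. Krt80 had a lower mean without passing (log2 change -0.64, limma adjusted p = 0.0719) and was called lower without cKO replicate 3. Krt19, a keratin of the follicle's outer root sheath and bulge, read 6.11, 6.51, 6.34 and 6.32 on the cKO arrays and 5.14, 5.55, 5.25 and 5.67 on the WT arrays. Its groups did not overlap, and it was 1.89-fold higher in cKO (limma adjusted p = 0.00274), also in all 8 fits without 1 array. Krt71, an inner root sheath keratin, rose 1.29-fold (limma adjusted p = 0.0212) and passed in 4 of those 8 fits. With the immediate early covariate Krt19 was at 0.75, against 0.92 without it, and Krt71 at 0.29, against 0.37. Neither passed there (limma adjusted p = 0.159 for Krt19 and 0.419 for Krt71), and with the replicate block Krt71 did not (0.0554).

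Other cell types that the preparation could hold were followed in the same way. Suprabasal keratinocyte markers had 1 rise, Sbsn, and 1 fall, Krtdap, among 12, where 1.92% of all genes were called higher and 0.836% lower, and their log2 summed signal was 12.9 to 13.1 in cKO and 12.7 to 13.01 in WT. Both genes encode secreted proteins of differentiating keratinocytes. Sbsn changed by 0.27 (limma adjusted p = 0.00213) and Krtdap by -0.63 (limma adjusted p = 0.0115), and both passed in all 8 fits without 1 array. With the immediate early covariate Krtdap passed (limma adjusted p = 0.0310) and Sbsn did not (limma adjusted p = 0.0908). Without WT replicate 4 the list had 3 rises, Calm4, Ivl and Sbsn, where 502 of all genes rose, against 329 with all arrays. The mean deviation of the list was 0.26 on WT replicate 4, -0.15 to -0.067 on the other WT arrays and -0.038 to 0.10 on the cKO arrays. Of 9 measured fibroblast markers, Col1a1 fell 1.88-fold and Thy1 rose 1.48-fold, and 5 were in the lowest 40% of genes. Without 1 array Col1a1 passed in 8 of 8 fits and Thy1 in 3. Neither passed with the immediate early covariate (limma adjusted p = 0.0511 for Col1a1 and 0.353 for Thy1). None passed among 9 endothelial, 8 T cell, 13 macrophage and Langerhans cell, 7 melanocyte and 6 mast cell markers, of which 7, 6, 11, 2 and 5 were in the lowest 40%. Ptprc, the pan-leukocyte gene CD45, read 3.60 in cKO and 3.61 in WT, and Cd3e of T cells 3.83 and 3.87, near the bottom of the scale. The part of these cell types in the values of the members was not tested.

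Immediate early genes are induced quickly by growth factors and by handling of tissue. All 22 measured had lower means in cKO (median log2 change -0.30) and none passed; Egr2 had the lowest p (limma adjusted p = 0.0609). That count rested on WT replicate 4: without this array 19 of the 22 fell (median log2 change -0.41). It was 7 with array weights, 3 with the replicate block and 1, Egr2, with probe sets averaged per gene or without cKO replicate 1. The mean deviation of this list was -0.23 to -0.08 on the cKO arrays, -0.15 on WT replicate 4 and 0.21 to 0.34 on the other WT arrays. As a covariate the list mean thus nearly follows genotype, with WT replicate 4 as the exception. A fit with it has wider errors, with an SE for Defb6 of 0.16 against 0.10. A call lost with this covariate therefore does not show that a change depends on immediate early induction. With the mean of the list as a covariate the log2 change of Defb6 was -1.30 (limma adjusted p = 0.0227) and that of Ly6d -0.45 (limma adjusted p = 0.165), while Krt79 was at -0.27 and Defb1 at -0.42. The part of immediate early induction in the members' values was not tested. Of 16 measured interferon response genes, Ifit1 rose 1.43-fold (limma adjusted p = 0.00711) and none fell, and Ifit1 did not pass with the same covariate (limma adjusted p = 0.0729).

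**Figure D4:**
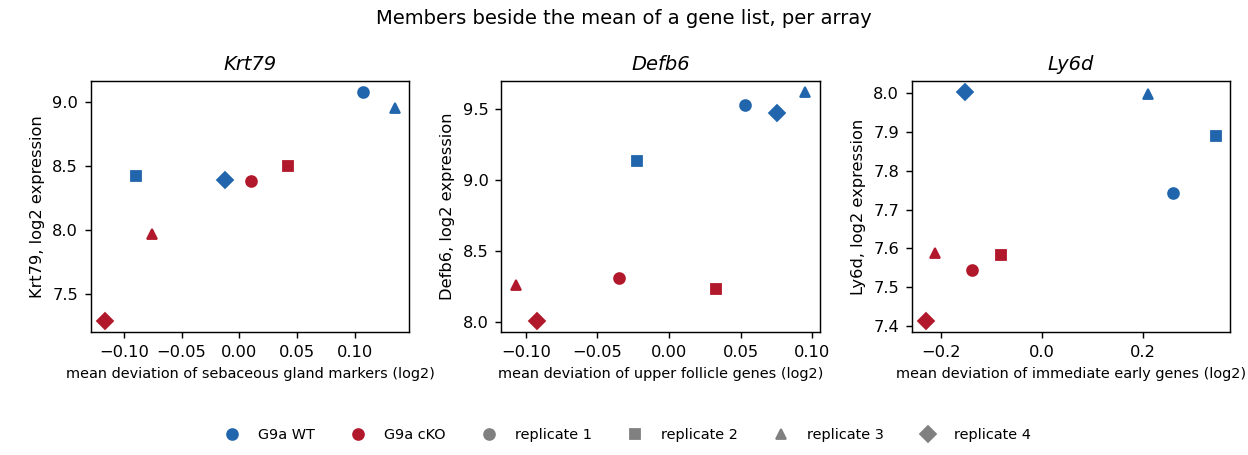
Log2 expression of Krt79, Defb6 and Ly6d (vertical axes) against the mean deviation of a gene list on the same array (horizontal axes, log2), for 4 G9a WT (blue) and 4 G9a cKO (red) arrays with replicates by symbol. WT replicates 1 and 3 are highest and cKO replicate 4 lowest both for Krt79 and for sebaceous gland markers, while WT replicate 4 lies among the cKO arrays for immediate early genes.

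The members differed in how they varied from array to array. Across the 8 arrays Pearson r was 0.91 between Defb6 and Ly6d, 0.76 between Defb6 and Krt79 and 0.76 between Defb6 and Defb1, which the genotype difference shared by these genes raises. After each genotype's mean was removed these became 0.36, 0.71 and -0.015 (n = 8 arrays, given as a description). The genes most like Defb6 over the 8 arrays, among 10257 compared, were Plcxd1, a phospholipase C-like gene (r = 0.991), Dap, a death-associated protein gene (r = 0.987), and Ptger4, a prostaglandin E receptor gene (r = 0.979). They were picked by a correlation that the genotype gap of Defb6 enters, so their lower means in cKO, by 1.36-, 1.14- and 1.61-fold, follow from the choice. After each genotype's mean was removed r was 0.83, 0.87 and 0.77. The genes most like Ly6d were Krtdap (r = 0.964), Tmprss6, a membrane serine protease gene (r = 0.956), and Ddx55, an RNA helicase gene (r = 0.950). With genotype means removed r was 0.81, 0.87 and 0.71. These are the highest of 10257 correlations for each gene.

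**Figure D5:**
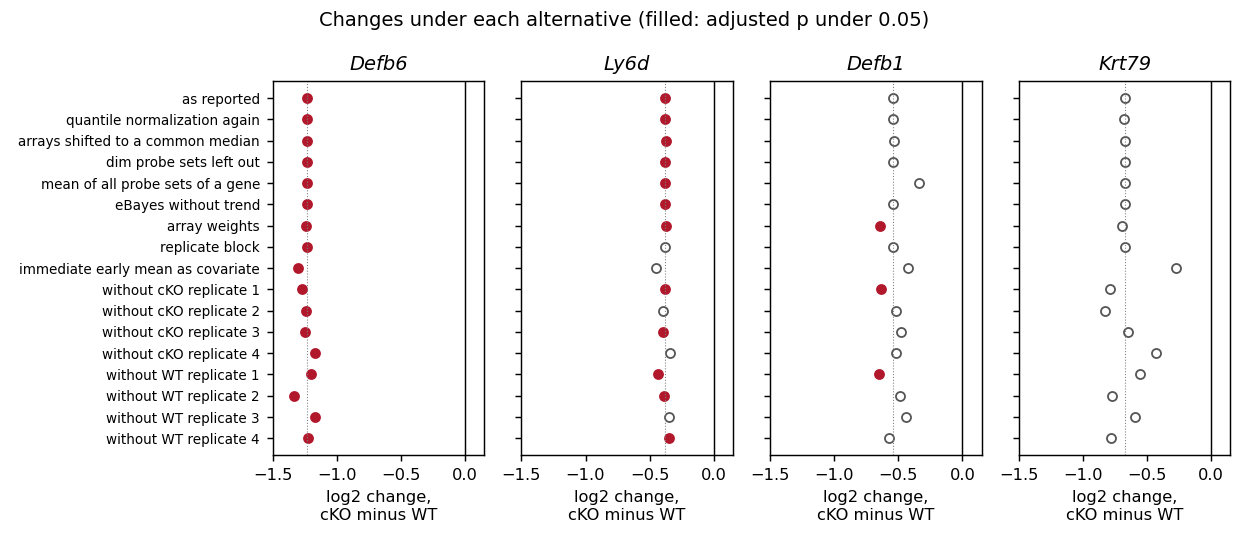
Log2 change of G9a cKO minus G9a WT (horizontal axes) for Defb6, Ly6d, Defb1 and Krt79 as reported and under each of 16 alternatives (rows), filled where the adjusted p was under 0.05. Defb6 is filled in every row, Ly6d in 11 of the 16 alternatives, Defb1 in 3 and Krt79 in none, and no point of these 4 genes lies above 0.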

How the data were processed

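Each sample's bulge cell RNA was hybridised to an Affymetrix mouse array, per the labels' protocols. Before that, 25 ng of total RNA was amplified over 17 cycles. The deposited values are log2 expression per probe set, made by the authors with RMA, per the submitters' processing notes; its version and settings are not stated there. RMA summarises probes and compresses differences of dim genes. The values needed no further normalization, and 0 columns of other samples were present. The number of arrays, 8, limits the precision.

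Gene symbols came from the platform annotation: 28898 of 45141 had 1 gene symbol, 551 several and 15692 none here. A gene was represented by its brightest probe set, by the mean of the 8 arrays, which gave 17097 genes. These were fitted with limma 3.58.1 (R 4.3.3), using lmFit and trended eBayes without filter or covariate, two-sided. Further probe sets were tested in a fit over all probe sets. The threshold was a Benjamini-Hochberg adjusted p under 0.05, and intervals are 95% intervals of the moderated fit. The titles do not say whether each array is a different animal, so p-values rest on the spread between arrays.

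Named genes are the members, up to 4 called genes per list (otherwise 1 or 2 with the lowest p), the 3 genes most like each called member, and Ehmt2. The members, the 9 gene lists and 10 marker lists (277 genes, 241 measured, 1 under an older symbol) were chosen with earlier results of these data known. Genes named beyond the rule, the neighbours and the promoter motifs were chosen after values were seen. Same-numbered arrays of the 2 genotypes did not deviate together (Pearson r across genes -0.33, -0.27, -0.53 and 0.028), so the numbers were not taken as pairs. Matplotlib 3.10.9 (Python 3.11.15) drew the figures.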

Additional observations from a re-analysis of the deposited data

Results flagged for a closer look

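In 2 of the 30 groups of 4 arrays formed by the 15 probe sets and 2 genotypes, 1 array stood far from the other three, about the number that chance gives, since it marks about 1 in 20 groups. Both were cKO arrays in Trp63 probe sets. Probe set 1451876_PM_a_at read 10.50 on cKO replicate 3, with the nearest cKO array at 10.60. Probe set 1459581_PM_at read 8.49 on cKO replicate 1, with the nearest at 8.29. Neither probe set passed the threshold.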

How the results depend on the processing

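The count of 2 members lower in cKO, Defb6 and Ly6d, was also found with eBayes without trend, dim probe sets left out, probe sets averaged per gene, quantile normalization repeated and array medians equalised. It was 3, with Defb1, with array weights or at an adjusted p under 0.1. It was 1, Defb6, with the replicate number as a block (replicate block), with the immediate early list as covariate and at an adjusted p under 0.01, and ran from 1 to 3 over the 8 fits without 1 array. Over all probe sets it was 1 with the replicate block and ran from 1 to 3 without 1 array. No member was called higher in any of these fits. Under the block Ly6d had a limma adjusted p of 0.0865 and Defb6 of 0.00250, and 268 of all genes were called, against 472 without it and 65 with the immediate early covariate. Ly6d kept its sign in all 16 alternatives, at -0.45 to -0.34. Plet1 changed sign without WT replicate 1, to -0.034, was 0.26 when the immediate early list was a covariate and 0.17 without WT replicate 3, and was not past the threshold in any of the 16 alternatives. The causes were not tested. Only Defb6 passed in all 16 alternatives, with limma adjusted p from 0.000233 to 0.0227. For Defb1 the log2 change was -0.34 with the mean of both probe sets. Dim signal limits Defb1 and the defensin and Ly6 families. Signal near the top of the scale limits Krt5, Krt14 and the brightest listed basal genes, such as Krt15 and Col17a1.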
